A study of Homo sapiens with 13 samples.

Results

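Cancer-testis antigen genes were described in LNCaP-abl, a prostate cancer cell line derived from LNCaP that grows without androgen, across siRNA pools against 12 genes and a control siRNA. The members were all gene entries whose symbol begins with GAGE, PAGE, XAGE, MAGEA, MAGEB, MAGEC, CTAG, SSX or BAGE, which gave 63 of 22613 entries. Of these, 53 belong to the cancer-testis families: 18 GAGE, 4 PAGE, 4 XAGE, 13 MAGEA, 1 MAGEB, 1 MAGEC, 2 CTAG, 6 SSX and 4 BAGE entries. The other 10, SSX2IP and 9 CTAGE entries, only share a prefix and are described apart.

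The knockdown libraries came from cells given siRNA pools to chromatin regulators (EZH2, EED, KDM1A, SMARCA4), genome organisers (CTCF, RAD21), transcription factors (FOXA1, FOXM1), repair genes (BRCA1, BRCA2) or noncoding RNAs (MALAT1, PCAT1), and the control library, siControl2, from cells given control siRNA. All 13 libraries share the parental cell line, medium depleted of steroids by charcoal stripping, and RNA taken 72 h after transfection. Each siRNA had 1 library and there were no replicates, so no test was possible, and a difference between siRNA pools and a difference between libraries cannot be told apart. Values are FPKM (fragments per kilobase of a transcript, scaled by library size), so levels can be set side by side per length. Differences are knockdown minus control on the log2(FPKM + 1) scale, which understates changes of low entries, and 1 log2 unit or more is called 2-fold. For shares of all genes, 15780 genes with a mean of at least 0.5 FPKM were kept, including 50 of the 63 members and 42 of the 53 cancer-testis entries.

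Cancer-testis antigens are proteins made in male germ cells, in some cases also in placenta, that many tumours switch on again. Peptides from them can be shown to T cells on the cell surface, which is how the MAGE, BAGE and GAGE genes were found in melanoma. Most families sit on the X chromosome in clusters of near-identical copies, and their promoters are kept silent in most adult tissues by DNA methylation. EZH2 is the enzyme of Polycomb repressive complex 2, which methylates histone H3, and EED is a core subunit of that complex.

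The promoters of the most abundant GAGE copy, of GAGE10, of PAGE1, of XAGE1A and of MAGEA3 are shown because the first 3 genes carry the main difference described here, XAGE1A shares a stretch with them, and MAGEA3 stands for the abundant family without that difference. Each line gives the 250 bases that precede the RefSeq gene start, 5′ to 3′ on the strand of the gene, on GRCh38.p14: chrX:49560592-49560841 (plus strand) for GAGE12F, chrX:49303396-49303645 (plus) for GAGE10, chrX:49695985-49696234 (minus) for PAGE1, chrX:52495627-52495876 (plus) for XAGE1A and chrX:152698544-152698793 (plus) for MAGEA3. Capitals mark a stretch of 23 bases shared by GAGE12F, PAGE1 and XAGE1A.
GAGE12F: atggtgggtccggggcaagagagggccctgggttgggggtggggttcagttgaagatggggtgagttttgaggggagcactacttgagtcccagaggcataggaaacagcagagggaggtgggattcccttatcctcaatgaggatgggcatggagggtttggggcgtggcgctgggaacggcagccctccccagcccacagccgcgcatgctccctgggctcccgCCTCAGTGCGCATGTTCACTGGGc
GAGE10: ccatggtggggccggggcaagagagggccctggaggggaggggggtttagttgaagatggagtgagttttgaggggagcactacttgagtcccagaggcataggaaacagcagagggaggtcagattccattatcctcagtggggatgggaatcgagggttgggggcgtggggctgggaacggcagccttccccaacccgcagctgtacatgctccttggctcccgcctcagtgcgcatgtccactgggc
PAGE1: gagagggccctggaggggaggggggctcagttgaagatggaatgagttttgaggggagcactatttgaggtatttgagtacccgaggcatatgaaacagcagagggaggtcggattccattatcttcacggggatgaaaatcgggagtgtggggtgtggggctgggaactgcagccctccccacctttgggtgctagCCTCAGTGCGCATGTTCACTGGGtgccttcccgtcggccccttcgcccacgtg
XAGE1A: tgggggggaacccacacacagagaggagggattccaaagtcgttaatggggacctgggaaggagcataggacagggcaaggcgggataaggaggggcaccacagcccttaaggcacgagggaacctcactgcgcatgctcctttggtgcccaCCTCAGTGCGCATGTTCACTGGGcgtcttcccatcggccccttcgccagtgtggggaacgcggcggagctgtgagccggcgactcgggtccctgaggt
MAGEA3: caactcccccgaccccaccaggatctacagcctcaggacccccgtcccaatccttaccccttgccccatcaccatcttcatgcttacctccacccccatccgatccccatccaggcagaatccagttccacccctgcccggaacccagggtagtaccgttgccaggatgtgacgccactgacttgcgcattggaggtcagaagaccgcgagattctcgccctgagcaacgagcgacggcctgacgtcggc

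The shared stretch ended 1 base before the start of GAGE12F, 30 bases before that of PAGE1 and 75 bases before that of XAGE1A. RefSeq promoter windows of 300 bases (the 250 before a start and the 50 after it) were found for 38 of the 63 members. Searched on both strands of all 35116 such windows, the stretch was present in 18 (0.0513%), which belonged to 14 genes, all GAGE, PAGE1 or XAGE1 genes of the X chromosome. Among 10 GAGE members with a window, 9 held it and GAGE10 held it with 1 mismatch, while the closest of 9 MAGEA members had 9 mismatches. Over the 250 bases, 8 of the 10 GAGE promoters, GAGE12F included, were identical. In local alignments to GAGE12F, identity was 90.3% over 248 bases for GAGE10, 84.0% over 212 bases for PAGE1, 75.7% over 152 bases for XAGE1A and 59.4% over 64 bases for MAGEA3.

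Some short words in the 300-base windows, chosen after values were seen, also differed between the families. As 8 of the 10 GAGE promoters were identical over the 250 bases, the GAGE windows are not independent observations. Nor are the MAGEA windows: the MAGEA6 promoter was identical to that of MAGEA3, and that of MAGEA12 was 89.7% identical to it over 175 aligned bases. The E-box word CACGTG, which reads the same on both strands, was in 10 of 10 GAGE windows and in that of PAGE1, in 0 of 9 MAGEA windows and not in that of XAGE1A, against 7.26% of all windows. GCGCATG, which lies within the shared stretch, was in 10 of 10 GAGE windows, in those of PAGE1 and XAGE1A and in 0 of 9 MAGEA windows, against 4.43% of all windows. CGGATG, which contains the GGAT core that ETS factors can bind, was in 9 of 9 MAGEA and 0 of 10 GAGE windows, against 6.53% of all windows. The TATA-box word TATAAA was in none of the 10 GAGE or 9 MAGEA windows, against 11.5% of all. All were searched on both strands, and such matches describe the letters only.

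LNCaP-abl expressed these families at high levels. In the control library the 53 cancer-testis entries summed to 1615 FPKM, of which GAGE made up 51.3%, MAGEA 27.5% and PAGE 13.8%. Of the 53 entries, 43 reached 1 FPKM in at least 1 library, 27 averaged 10 FPKM or more, and 10 stayed below 1 FPKM throughout. Control sums were 829 FPKM for GAGE, 445 for MAGEA, 223 for PAGE, 52.7 for CTAG, 43.0 for XAGE, 17.4 for BAGE, 3.31 for SSX, 1.08 for MAGEB and 0.511 for MAGEC. GAGE was above MAGEA in 12 of the 13 libraries, siEZH2 being the exception, and MAGEA was above PAGE in all 13. CTAG was above XAGE in every library except siRAD21, which had 35.4 FPKM of CTAG and 37.4 FPKM of XAGE. Their ranges over the 13 libraries overlapped, CTAG running between 35.4 and 61.7 FPKM and XAGE between 29.9 and 48.4 FPKM.

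GAGE genes, which encode small acidic proteins from a tandem cluster on the X chromosome, were much lower in siEZH2 than in every other library. The summed GAGE level was 243 FPKM in siEZH2, against 829 FPKM in the control. It was 887 FPKM in siBRCA1, 900 in siBRCA2, 889 in siCTCF, 788 in siEED, 787 in siFOXA1, 868 in siFOXM1, 860 in siKDM1A, 864 in the library labelled siMALAT1, 1012 in siPCAT1, 735 in siRAD21 and 861 in siSMARCA4. The siEZH2 library thus stood alone at 29.4% of the control, a difference of -1.76, while the lowest of the other 12 libraries, siRAD21, had 3.02 times its level. Those 12 libraries had a coefficient of variation of 8.12%, and the other 11 knockdowns lay between -0.17 and 0.29 of the control. In a bulk library, fewer cells that express these genes and less RNA per cell cannot be told apart.

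PAGE1, a relative of the GAGE genes next to their cluster, was low in the same library. It had 69.7 FPKM in siEZH2, against 223 FPKM in the control, a difference of -1.67. It was 251 FPKM in siBRCA1, 243 in siBRCA2, 233 in siCTCF, 248 in siEED, 202 in siFOXA1, 230 in siFOXM1, 258 in siKDM1A, 217 in the library labelled siMALAT1, 229 in siPCAT1, 195 in siRAD21 and 213 in siSMARCA4, so siEZH2 did not overlap the other 12 libraries. The other 3 PAGE entries were at or near the floor, and of these PAGE4 alone reached 1 FPKM, at 1.30 in the library labelled siMALAT1, against 0.262 in the control.

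XAGE1A, a further member of this superfamily, was also lowest in siEZH2, by a smaller margin. It had 27.9 FPKM in siEZH2, against 40.2 FPKM in the control, a difference of -0.51, and siFOXM1 came next with 31.9 FPKM. XAGE1C ran between 1.71 FPKM in siBRCA1 and 2.93 FPKM in siPCAT1, against 2.83 in the control. XAGE2B and XAGE3, named here although neither reached 1 FPKM in any library, were listed at 0 in the control. The difference of XAGE1A is within 2-fold and was not tested.

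**Figure D1:**
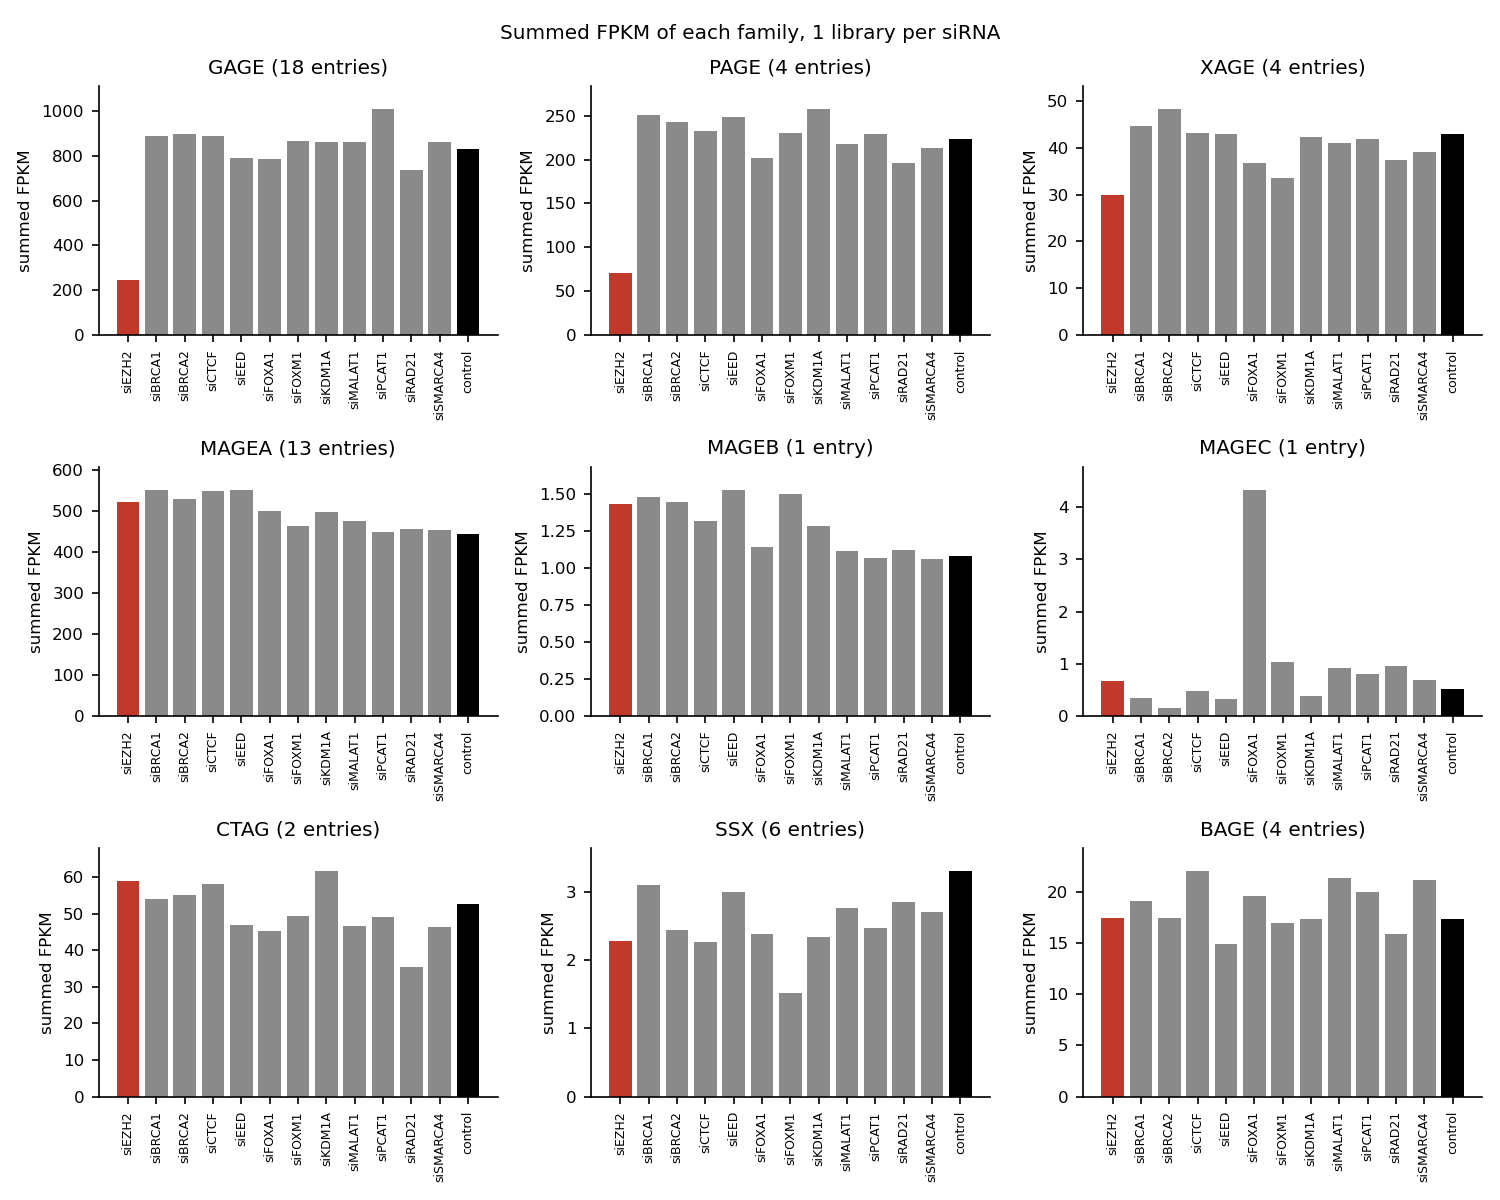
Summed FPKM (vertical axes, starting at 0) of each of the 9 families, with siEZH2 in red, the other 11 knockdowns in grey and the control in black, 1 library per bar. GAGE and PAGE are low in siEZH2 (243 and 69.9 FPKM, against 829 and 223 FPKM in the control), MAGEC is high in siFOXA1 (4.34 FPKM, against 0.511 FPKM in the control), and no other sum lies 2-fold from the control on the log2(FPKM + 1) scale. On the plain FPKM drawn here, MAGEC in siBRCA2 (0.145 FPKM) and siFOXM1 (1.03 FPKM) and SSX in siFOXM1 (1.52 FPKM, against 3.31 FPKM in the control) also differ by more than that.

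Single entries showed the same pattern in siEZH2. Of the 50 members kept, 16 were at least 2-fold lower there (14 GAGE entries, PAGE1 and BAGE5), against 3.09% of all genes kept, and 2, GAGE2E and GAGE7, were at least 2-fold higher, against 0.894%. As the copies share much of their sequence, they are not independent observations. Of all genes kept, 28 (0.177%) lay at least 1 log2 unit below all other 12 libraries in siEZH2, and 15 of those 28 were the 14 GAGE entries and PAGE1. For the opposite direction the count was 0 members, against 0.0127% of all genes. In siEZH2, 17 members were at their lowest of the 13 libraries, against 6.26% of all genes kept.

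Among the 18 GAGE entries, 14 were lowest in siEZH2. Of the 15 that averaged at least 10 FPKM over the 13 libraries, 13 were lowest there and 2, GAGE6 and GAGE7, were not, and the 15 differences ran between -2.55 and 2.27 with a median of -1.70. The 13 abundant entries other than GAGE6 and GAGE7 lay between 16.1% and 34.1% of the control. GAGE12F, the highest, had 36.4 FPKM in siEZH2, against 127 FPKM in the control, and 107 to 155 FPKM over the other 12 libraries. GAGE12J had 31.7 FPKM in siEZH2, against 111 FPKM in the control, GAGE12B 27.6 against 95.2, GAGE2B 25.6 against 98.3, GAGE10 16.6 against 56.1 and GAGE4 14.4 against 89.5. In each of these 6 the siEZH2 value lay below the range of the other 12 libraries. In the other 11 knockdowns the same 13 entries lay between -0.67 and 0.43 of the control. GAGE10, whose promoter shown above differs from that of GAGE12F, had a difference of -1.70 in siEZH2, and GAGE12F one of -1.78.

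The remaining 5 GAGE entries (GAGE12D, GAGE2C, GAGE2E, GAGE6 and GAGE7) did not reach 10 FPKM in each of the other 12 libraries, and they are named here after their values were seen. GAGE6 and GAGE7 averaged 12.3 and 18.6 FPKM but varied widely, GAGE2C and GAGE2E were low, and GAGE12D had 1.97 to 6.16 FPKM outside siEZH2. Together they had 21.5 FPKM in siEZH2, against 9.89 FPKM in the control, while the other 13 together had 222 FPKM in siEZH2, against 819 FPKM in the control. GAGE12D was low along with the abundant copies, at 0.138 FPKM in siEZH2, against 3.73 FPKM in the control. GAGE7 had 14.2 FPKM in siEZH2, against 2.14 FPKM in the control, a level low among the 13 libraries, since 9 of the other 11 knockdowns had 9.49 to 38.8 FPKM.

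**Figure D2:**
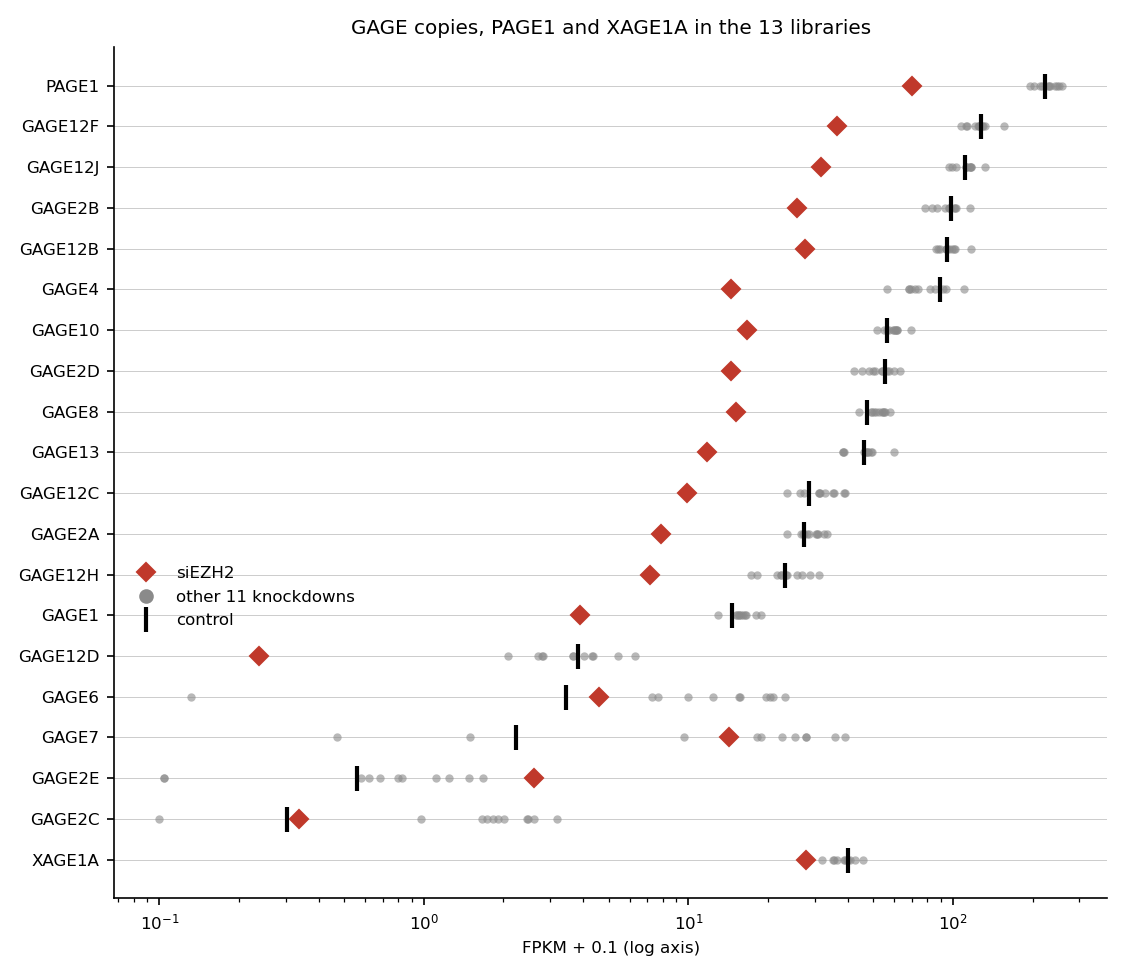
FPKM plus 0.1 on a log axis for PAGE1, the 18 GAGE entries and XAGE1A, with red diamonds for siEZH2, grey points for the other 11 knockdowns and black ticks for the control. For PAGE1 and 14 GAGE entries the diamond lies to the left of all other points (GAGE12F 36.4 FPKM, against 127 FPKM in the control), while GAGE6, GAGE7, GAGE2E and GAGE2C scatter.

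Some copies traded values from library to library while their sums varied less. GAGE7 ran between 0.369 FPKM in siPCAT1 and 38.8 FPKM in siFOXA1, and GAGE6 between 0.0315 FPKM in siBRCA2 and 23.1 FPKM in siSMARCA4. The sum of GAGE4, GAGE6 and GAGE7 was 33.0 FPKM in siEZH2, against 95.0 FPKM in the control, and reached no more than 126 FPKM in any other library. BAGE4 and BAGE5, copies of the B melanoma antigen family, also changed places: in siEED BAGE5 had 4.75 FPKM and BAGE4 0.181 FPKM, against 2.14 and 1.68 FPKM in the control, whereas siKDM1A had 0.00065 FPKM of BAGE5 and 7.63 FPKM of BAGE4. Their sum was not constant, running between 3.37 FPKM in siEZH2 and 7.97 FPKM in siSMARCA4, against 3.82 FPKM in the control. In the GENCODE 29 transcripts, a median of 92.9% of the 50-base words of a GAGE gene also occurred in another GAGE copy (11 genes matched, ranging between 12.9% for GAGE1 and 100%), and the median was 53.9% for 13 MAGEA genes. GAGE4, GAGE6, GAGE7, BAGE4 and BAGE5 were not matched, and the part of shared reads in their trading was not tested.

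**Figure D3:**
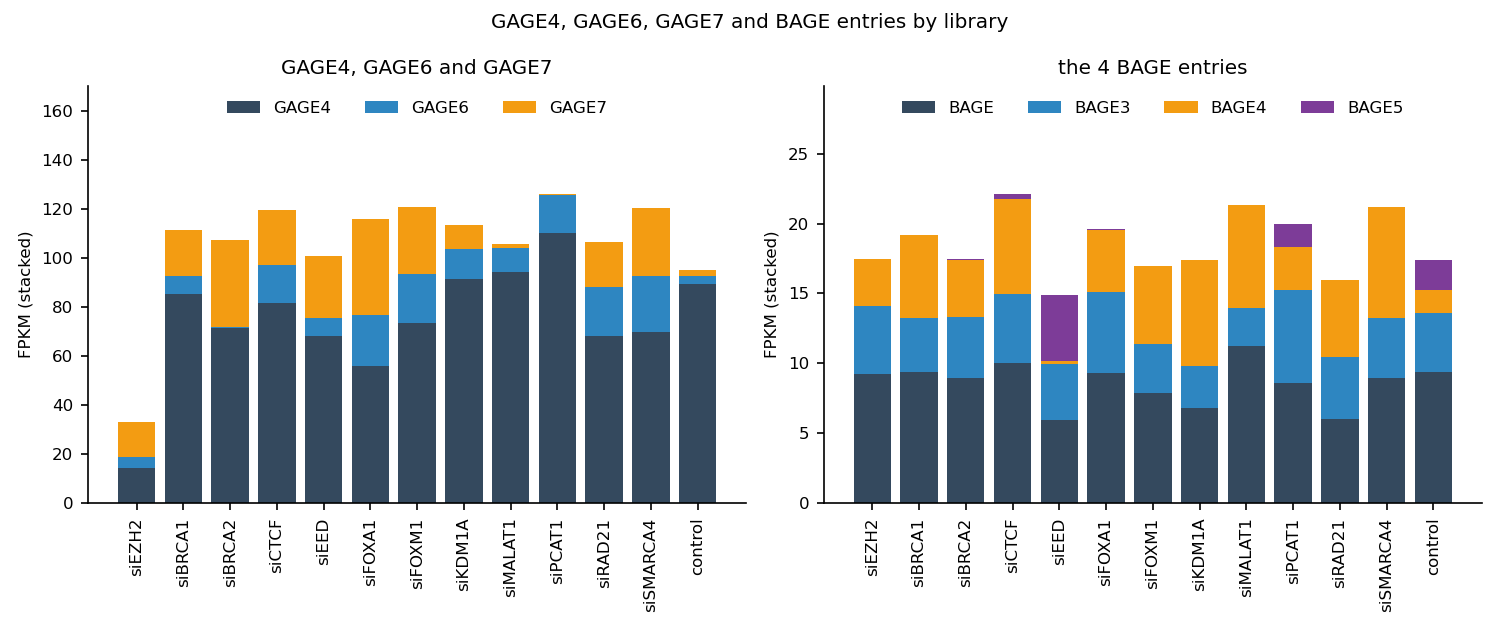
FPKM (vertical axes, stacked from 0) of GAGE4, GAGE6 and GAGE7 on the left and of the 4 BAGE entries on the right, 1 library per bar, siEZH2 first and the control last. The split between copies changes from library to library, while the GAGE4, GAGE6 and GAGE7 sum is 95.0 to 126 FPKM everywhere except siEZH2, at 33.0 FPKM.

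Outside siEZH2, 48 of the single values of the 50 members were 2-fold from the control, and 46 of these were BAGE4, BAGE5, GAGE2C, GAGE2E, GAGE6 or GAGE7. In siBRCA1, 1 member was lower (0.944% of all genes kept) and 3 were higher (0.45%). For siBRCA2 the counts were 2 lower (0.76%) and 2 higher (0.767%), and for siCTCF 1 lower (2.85%) and 4 higher (1.27%). The siEED library, with the second Polycomb subunit targeted, had 1 lower (0.741%) and 2 higher (0.817%).

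In siFOXM1, 1 member was lower (3.6%) and 4 were higher (2.59%), and in siKDM1A 1 was lower (1.55%) and 4 were higher (0.754%). The library labelled siMALAT1 had 1 lower (1.57%) and 2 higher (0.387%), and siPCAT1 had 1 lower (1.33%) and 1 higher (0.323%). For siRAD21 there were 1 lower (1.88%) and 4 higher (0.906%), and for siSMARCA4 1 lower (1.97%) and 4 higher (0.494%). These counts turn on the control, in which GAGE6, GAGE7, GAGE2C and BAGE4 were low and BAGE5 high: set against the median of the other knockdowns, no member was higher in siBRCA1, siBRCA2, siCTCF, siFOXM1, siKDM1A, the library labelled siMALAT1, siRAD21 or siSMARCA4.

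In siFOXA1, 2 members were lower (4.22%), BAGE5 and SSX2IP, and 5 were higher (3.52%), of which MAGEC3 was not a trading copy. Against the median of the other 11 knockdowns the counts were 0 lower and 2 higher, MAGEC3 (1.68) and GAGE7 (1.01), and SSX2IP had -0.55. MAGEC3, a MAGE gene of the X chromosome, had 4.34 FPKM in siFOXA1, against 0.511 FPKM in the control, a difference of 1.82. It was 0.339 FPKM in siBRCA1, 0.145 in siBRCA2, 0.463 in siCTCF, 0.319 in siEED, 0.671 in siEZH2, 1.03 in siFOXM1, 0.374 in siKDM1A, 0.919 in the library labelled siMALAT1, 0.802 in siPCAT1, 0.959 in siRAD21 and 0.677 in siSMARCA4, so siFOXA1 did not overlap the other 12 libraries. MAGEC3 was the 1 member at least 1 log2 unit above all other 12 libraries in siFOXA1, against 0.494% of all genes kept. No member was as far below them (0.241% of all genes), and 3 had their lowest value there (14.3%). FOXA1, a pioneer factor that opens chromatin, was itself at 60.6 FPKM in siFOXA1, against 137 FPKM in the control.

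The MAGEA family, whose proteins bind E3 ubiquitin ligases, stayed within 2-fold of the control in all 12 knockdowns. The summed MAGEA level was 522 FPKM in siEZH2, against 445 FPKM in the control, a difference of 0.23. The control was the lowest of the 13 libraries, and the knockdowns ran between 448 FPKM in siPCAT1 and 553 FPKM in siBRCA1. None of the 12 MAGEA entries kept was 2-fold from the control in any knockdown, the extremes being -0.50 for MAGEA1 in siRAD21 and 0.64 for MAGEA2 in siEED.

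MAGEA4, the most abundant of them, had 157 FPKM in siEZH2, against 138 FPKM in the control, and ran up to 183 FPKM in siBRCA1. MAGEA3 had 92.2 FPKM in siEZH2, against 75.0 FPKM in the control, and its near twin MAGEA6 had 79.3 against 67.7 FPKM. The promoters of these 2 genes were identical over the 250 bases. MAGEA12 had 58.2 FPKM in siEZH2, against 43.3 FPKM in the control, which was its lowest library, and MAGEA1 had 41.8 against 45.2 FPKM. MAGEA2B, read with its copy MAGEA2, summed to between 42.8 and 61.1 FPKM, highest in siEZH2.

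With GAGE lower and MAGEA near the control, the make-up of the cancer-testis pool differed in siEZH2. All 53 entries summed to 946 FPKM in siEZH2, against 1615 FPKM in the control. GAGE made up 25.7% of this sum in siEZH2, against 51.3% in the control and 46.4% to 56.0% over the other 12 libraries. The MAGEA share was 55.2% in siEZH2, against 27.5% in the control. Without GAGE and PAGE1, the remaining cancer-testis entries summed to 633 FPKM in siEZH2, against 563 FPKM in the control, inside the 552 to 677 FPKM of the other 12 libraries.

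The other families stayed within 2-fold of the control in siEZH2. CTAG2 and CTAG1A, which encode LAGE-1 and the NY-ESO-1 antigen, had 45.4 and 13.5 FPKM in siEZH2, against 40.3 and 12.4 FPKM in the control. Their sum was lowest in siRAD21, with 35.4 FPKM, against 52.7 FPKM in the control, a difference of -0.56. SSX2, a member of the synovial sarcoma X breakpoint family, had 0.939 FPKM in siEZH2, against 1.91 FPKM in the control. That is -0.59 on the log2(FPKM + 1) scale but a ratio of 0.492 on plain FPKM, just past 2-fold. The SSX sum had 2.27 FPKM in siEZH2 and was lowest in siFOXM1, with 1.52 FPKM, against 3.31 FPKM in the control (-0.77).

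MAGEB10 ran between 1.06 FPKM in siSMARCA4 and 1.53 FPKM in siEED, with 1.43 FPKM in siEZH2, against 1.08 FPKM in the control. The BAGE sum was 17.5 FPKM in siEZH2, against 17.4 FPKM in the control, with BAGE at 9.23 FPKM in siEZH2, against 9.35 FPKM in the control, and BAGE3 at 4.87 against 4.25 FPKM. Over the 9 families and 12 knockdowns, 3 of 108 family sums were 2-fold from the control: GAGE and PAGE in siEZH2 and MAGEC in siFOXA1. The 10 entries that only share a prefix had 1 such value among the 8 kept, SSX2IP in siFOXA1, with 9.08 FPKM, against 19.7 FPKM in the control (-1.04) and a median of 13.7 FPKM in the other 11 knockdowns. SSX2IP encodes a centrosomal protein that binds SSX2. CTAGE5, which acts in the export of large cargo from the endoplasmic reticulum, had 13.7 FPKM in siEZH2, against 10.3 FPKM in the control, and the other CTAGE entries stayed at or below 3.51 FPKM, the value of CTAGE4 in siFOXM1.

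**Figure D4:**
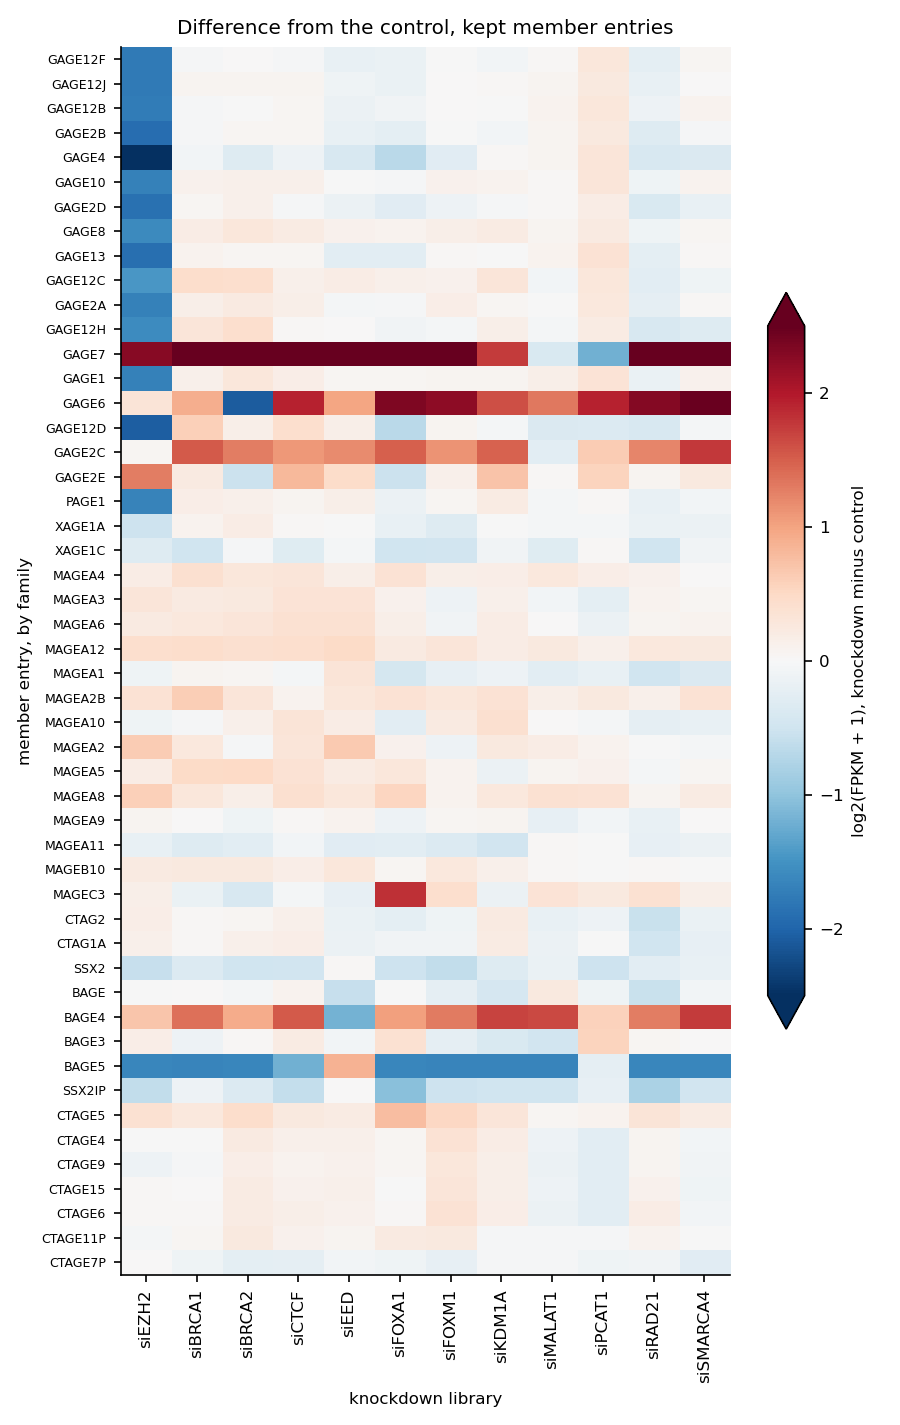
Difference from the control in log2(FPKM + 1) for the 50 members kept (rows, by family) in the 12 knockdowns (columns, siEZH2 first), with blue for lower and red for higher in the knockdown. The blue block of GAGE entries and PAGE1 lies in the siEZH2 column (GAGE12F -1.78, PAGE1 -1.67), the MAGEA rows stay pale, and the rows GAGE6, GAGE7, GAGE2C, BAGE4 and BAGE5 are coloured across most columns.

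EZH2 itself was lowest in siEZH2, with 2.20 FPKM, against 16.4 FPKM in the control (-2.44). It was also low in siFOXA1 (5.32 FPKM), siFOXM1 (6.27 FPKM) and siCTCF (7.51 FPKM), in which the GAGE sum was 787 FPKM (siFOXA1), 868 FPKM (siFOXM1) and 889 FPKM (siCTCF). EED had 4.13 FPKM in siEED, against 8.94 FPKM in the control (-0.95), a smaller difference than that of EZH2 in siEZH2, with EZH2 at 16.0 FPKM there. The GAGE sum in siEED was 788 FPKM and PAGE1 had 248 FPKM, so the siEED and siEZH2 libraries differed in these genes although both siRNAs targeted the same complex. That difference was not tested.

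The levels of chromatin regulators were set beside these sums. Of 28 silencing factors looked up, 26 were in the files and 25 were kept, and 2 of these, EZH2 and UHRF1, were 2-fold lower in siEZH2 and 0 higher, against 3.09% and 0.894% of all genes kept, and the median difference was -0.09, against 0.05 for all genes kept. As EZH2 was the siRNA target, UHRF1 was the 1 other gene called. UHRF1, which guides maintenance DNA methylation, had 1.92 FPKM in siEZH2, against 11.4 FPKM in the control, the highest of the 13 libraries. It was 2-fold lower than the control in 10 of the 12 knockdowns, and lowest in siFOXA1 (0.609 FPKM) and siFOXM1 (0.97 FPKM). DNMT1, the maintenance methyltransferase, had 14.1 FPKM in siEZH2, against 28.3 FPKM in the control, again the highest of the 13 libraries. Its difference of -0.96 in siEZH2 was under 2-fold, and it had 11.5 FPKM in siFOXA1 and 10.8 FPKM in siFOXM1.

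RAD21, a cohesin subunit, had 19.8 FPKM in siEZH2, against 88.5 FPKM in the control, and BRCA1 had 1.87 against 11.1 FPKM. In the libraries with siRNA to these genes, RAD21 was at 6.97 FPKM with a GAGE sum of 735 FPKM, and BRCA1 was at 1.83 FPKM with a GAGE sum of 887 FPKM. CTCF, KDM1A and SMARCA4, also on the list of silencing factors, were lowest in their own knockdowns, by -2.30 for CTCF, -2.16 for KDM1A and -2.40 for SMARCA4, and CTCF had -0.22, KDM1A -0.09 and SMARCA4 -0.02 in siEZH2. FOXM1 had 2.47 FPKM in siEZH2 and 0.474 FPKM in siFOXM1, against 20.1 FPKM in the control. BRCA2 had 1.23 FPKM in siBRCA2, against 3.25 FPKM in the control (-0.93). That library ranked 9 from the lowest of the 13 for BRCA2, and siEZH2 had 0.393 FPKM, so low BRCA2 was not particular to siBRCA2.

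The genes that flank the GAGE cluster had smaller differences on the log2(FPKM + 1) scale, which understates changes of low entries. Of the 5 genes kept on each side of the stretch from GAGE10 to PAGE1 in RefSeq order, a set chosen after values were known, 0 of 10 were 2-fold from the control in siEZH2, a count too small to set apart from the 3.09% lower and 0.894% higher among all genes kept. FOXP3 (0.529 FPKM in the control), USP27X-AS1 (1.11), PPP1R3F (1.19), USP27X (1.81), CLCN5 (2.06) and NUDT11 (2.20) were low. At such levels a fall to 29.4% of the control, as for the GAGE sum, would not be called 2-fold on this scale. PPP1R3F, next to the GAGE side, had 0.888 FPKM in siEZH2, against 1.19 FPKM in the control (-0.22). On the PAGE1 side, USP27X had 1.27 FPKM in siEZH2, against 1.81 FPKM in the control (-0.31), and was at its lowest there. The lowest difference among the 10 was -0.64 for PLP2, which was lower than the control in every knockdown. Of 448 other X-chromosome genes kept, 13 (2.90%) were 2-fold lower in siEZH2 and 0 were higher, with a median difference of 0.05, the same as for all genes kept.

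**Figure D5:**
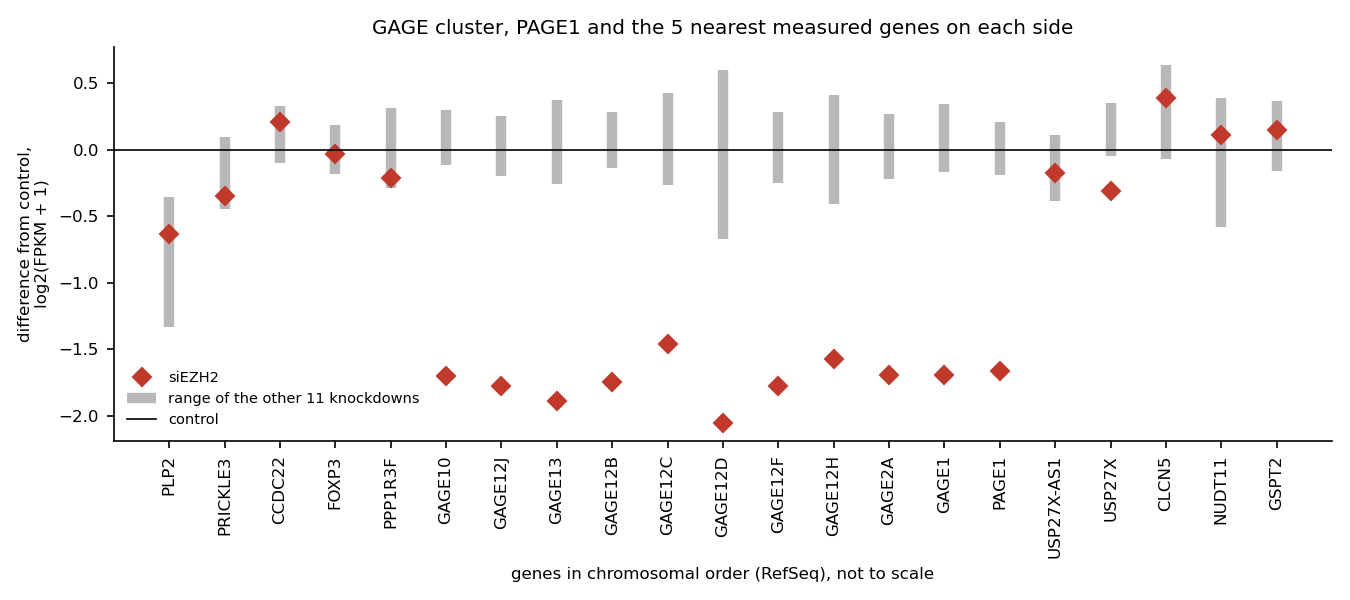
Difference from the control in log2(FPKM + 1) for GAGE genes with a RefSeq position, PAGE1 and the 5 nearest genes kept on each side, in chromosomal order, with red diamonds for siEZH2, grey bars for the range of the other 11 knockdowns and a line at 0 for the control. The diamonds of the GAGE genes and PAGE1 lie between -2.05 and -1.46, and those of the 10 flanking genes between -0.64 and 0.39.

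Cancer-testis genes outside these families were looked up by name. Of 50 other X-linked symbols looked up, 21 were in the files and 14 were kept, and 0 were 2-fold lower or higher in siEZH2, with a median difference of 0.09. Of 24 autosomal symbols, 13 were in the files and 8 were kept, again with 0 lower and 0 higher and a median difference of 0.10. The broadly expressed MAGE genes (MAGED, MAGEE, MAGEF, MAGEH, MAGEL2 and relatives) had 7 kept, with 0 lower and 0 higher and a median difference of -0.11. The median over all genes kept was 0.05, and with 3.09% of them lower and 0.894% higher in siEZH2, counts of 0 in lists this short are near the background. Several genes of these lists were also low, such as CT45A1 (1.17 FPKM in the control) and BRDT (1.54 FPKM). In these, a fall to 29.4% of the control, as for the GAGE sum, would not be called 2-fold on the log2(FPKM + 1) scale.

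Elsewhere among them, CSAG3, an X-linked gene that lies among the MAGEA genes, had 32.6 FPKM in siFOXM1 and 28.6 FPKM in siFOXA1, against 13.3 FPKM in the control, and 14.8 FPKM in siEZH2. CSAG2, its neighbour and close copy, had 1.80 FPKM in siCTCF and 1.84 FPKM in the library labelled siMALAT1, against 4.97 FPKM in the control. CSAG3 was above its control value in those libraries, with 18.6 FPKM in siCTCF and 25.8 FPKM in the library labelled siMALAT1. CSAG2 had 2.91 FPKM in siFOXA1 and 6.84 FPKM in siFOXM1. These copies were not summed, and the part of shared reads in their single values was not tested. ZNF165, a zinc finger gene active in testis, had 4.92 FPKM in siFOXM1, against 1.59 FPKM in the control. DDX4, the germ-cell RNA helicase, had 3.49 FPKM in siFOXA1, against 0.0641 FPKM in the control, and was not kept because its mean was under 0.5 FPKM.

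Some luminal prostate markers were high in the cells: KRT8, KRT18, HOXB13 and FOLH1 had at least 77.6 FPKM in all 13 libraries. KLK3, the gene of prostate-specific antigen, stayed below 1 FPKM in every library, so this defining marker was all but absent. KLK2 was low too, with a median of 0.282 FPKM and its highest value, 1.70 FPKM, in siKDM1A. The 10 luminal markers reported summed to 1042 FPKM in siEZH2, against 1003 FPKM in the control and 794 to 1449 FPKM over the other 12 libraries, and 2 of the 8 kept, TMPRSS2 and SLC45A3, were 2-fold higher in siEZH2 and 0 lower. SLC45A3 had 20.7 FPKM in siEZH2, against 6.44 FPKM in the control, and TMPRSS2 45.5 against 19.4 FPKM. Both were also 2-fold higher elsewhere, TMPRSS2 in siFOXA1, siFOXM1 and siRAD21 and SLC45A3 in siCTCF and siKDM1A. The widest difference of each reported gene of the list outside siEZH2 that passed 2-fold was -1.55 for SLC45A3 in siFOXA1, 1.40 for TMPRSS2 in siFOXM1, 1.36 for ACPP in siRAD21, -1.19 for STEAP2 in siFOXM1 and 1.15 for KLK2 in siKDM1A. Of 12 germ-cell symbols, 4 were in the files, and they summed to 9.53 FPKM in siEZH2, against 11.7 FPKM in the control and 7.40 to 15.7 FPKM over the other 12 libraries, most of it SYCP3 (7.23 FPKM in siEZH2, against 9.47 FPKM in the control), while DDX4 had 0.0244 FPKM in siEZH2. Markers of fibroblasts, endothelium and blood (4 in the files) summed to 9.82 FPKM in siEZH2, against 8.18 FPKM in the control, and PTPRC, the blood-cell antigen CD45, was the 1 gene of that list 2-fold from the control in any knockdown (1.09 in siRAD21). The part of these markers in the GAGE result was not tested.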

How the data were processed

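RNA from LNCaP-abl cells, 1 library per siRNA, was taken 72 h after transfection, prepared with Illumina's TruSeq kit and sequenced on a HiSeq, per the labels' protocols. TopHat and Cufflinks were used on hg19, per the submitters' processing notes, without versions. The sources used here do not say whether strand was used. Deposited by the authors were log2 values of FPKM. The lowest value equals the log2 of 0.1, so they were read as log2(FPKM + 0.1). Sorted values differed by at most 0.0562 between libraries, so they had been brought to a common distribution, a step no label records. That step can hide a change shared by most genes. Depth is unknown, so no counting error is given, and values at the floor (1528 to 1821 entries per library) are listed at 0.

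FPKM were recovered by subtracting 0.1, summed over the entries of a family and compared as log2(FPKM + 1). Genes with a mean of at least 0.5 FPKM were kept, without small RNAs. There were no replicates and no test. The calculation was run on simulated data made from control values without noise, which checks the arithmetic only. Named were all family sums, entries reaching 1 FPKM (at most the 6 highest per family) and list genes reaching 1 FPKM and 2-fold from the control (at most 6 per list). Other names (XAGE2B, XAGE3, GAGE6, GAGE7, GAGE12D, GAGE2C, GAGE2E, MAGEA2, neighbours, promoter words) were chosen after values were seen. The list genes KRT8, KRT18, HOXB13, FOLH1, KLK3, SYCP3, CT45A1 and BRDT are also named outside this rule. The members and lists were chosen with earlier results of these data known. Promoter sequences are RefSeq on GRCh38.p14, not the authors' build, so those coordinates belong to no deposited value. The level of PCAT1 was not analysed here, and some marker genes are not reported here. In the library labelled siMALAT1, MALAT1 had 21.7 FPKM, against 16.4 FPKM in the control, so its direction is not read as a knockdown. Python 3.11.15, pandas 2.3.3, numpy 2.4.6, Biopython 1.88 and matplotlib 3.10.9 were used.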

Additional observations from a re-analysis of the deposited data

How the results depend on the processing

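The GAGE difference in siEZH2 lay between -1.88 and -1.76 over 8 alternatives: a pseudocount of 0.1, no filter, quantile normalization, centring, comparison with the other 11 knockdowns' median, the highest entry in place of the sum, and sums without erratic entries under 2 rules, of which the one for entries varying at least 10-fold was chosen after seeing the data. The filter does not enter family sums, and quantile normalization met values already on a common distribution. The rule for entries listed at 0 in a library and above 1 FPKM in another left out GAGE2C alone. These settings could therefore hardly move any family sum, and they are also part of the count that follows. Of 844 family differences computed under these alternatives, 50 had the opposite sign to the reported value, and none of those 50 was 2-fold from the control before or after, the largest reported one being 0.31 in size. The 3 family sums that were 2-fold from the control kept their direction wherever an alternative gave a value. With the pseudocount of 0.1, 1 family was 2-fold from the control in siBRCA2 (MAGEC, -1.32) and 1 in siFOXM1 (SSX, -1.07). Without entries varying at least 10-fold, 0 families were so in siFOXA1, because MAGEC3 is the only MAGEC entry, and MAGEC then has no value. With the pseudocount of 0.1, the entries lower were 4 in siBRCA2, and 2 each in siFOXM1, siKDM1A and the library labelled siMALAT1, and those higher were 4 in siEED and 3 in siPCAT1. Against the median of the other 11 knockdowns, the entries lower were 1 in siBRCA2, 2 in the library labelled siMALAT1, 17 in siEZH2 and 0 in siCTCF, siFOXA1, siFOXM1, siRAD21 and siSMARCA4. Those higher were 1 in siEED, 1 in siEZH2, 2 in siFOXA1 and 0 in siBRCA1, siBRCA2, siCTCF, siFOXM1, siKDM1A, the library labelled siMALAT1, siRAD21 and siSMARCA4. The low control values of GAGE6, GAGE7, GAGE2C and BAGE4 and the high value of BAGE5 enter every count against the control. With 1 library per group and unknown depth, differences within 2-fold could not be separated from library noise. No paired analysis was possible because each siRNA has 1 library and no test was run.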
